A study of Mus musculus with 6 samples.

Results

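Transcripts of 10 genes of the MYC, MAX and MXD network were examined in the liver of growth hormone-releasing hormone knockout (GHRH-KO) mice: Myc, Mycl, Mycn, Max, Mxd1, Mxd3, Mxd4, Mxi1, Mnt and Mlx. The members were taken by name, and every probe set that the array annotation gives to only 1 of them was read. This gave 24 probe sets for the 10 genes, of 45101 on the array. Where a gene had several probe sets, the one with the highest mean over the 6 arrays stood for the gene, and the others are described beside it. Liver RNA of 3 male GHRH-KO mice (replicates 4, 5 and 6) and of 3 male wild-type littermates (controls, replicates 1, 2 and 3) was hybridised to Affymetrix Mouse Genome arrays, 1 array per mouse. Both genotypes came from a closed colony of mixed C57BL6 and 129SV background, were 10 months old by the study's methods, and had been without food for 6 to 8 h. GHRH-KO mice lack the hypothalamic peptide that drives the pituitary to release growth hormone, and the deletion is not limited to the liver. The values are RMA signals on the log2 scale, so a difference of 1 is a doubling, and only differences between groups within a probe set can be read, since the signals of different probe sets have no common scale.

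The network is a set of transcription factors that share a basic helix-loop-helix leucine zipper and bind DNA in pairs. MAX is the common partner: with MYC, MYCL or MYCN it activates genes of growth, ribosome assembly and metabolism, and with MXD1, MXI1, MXD3, MXD4 or MNT it recruits SIN3 corepressors to the same kind of site, the E-box. MLX is a second hub, which pairs with MLXIPL (ChREBP) and MLXIP (MondoA), the glucose-responsive factors of liver and muscle, and with some MXD proteins. MYC is low in resting hepatocytes and is known for its rapid induction in liver regeneration.

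The letters that these dimers read best are CACGTG, and they stand in the promoters of several of the genes themselves. In RefSeq promoters of the GRCm38.p6 assembly, each running from 250 bases before a start site to 50 bases after it, 9 of the 10 genes were listed, with 11 promoters. Myc was the gene not listed, so its promoter was not searched. CACGTG, which reads the same on both strands, was in the promoters of 4 genes (36.4% of the 11 promoters), against 2349 of all 32851 promoters in the table (7.15%). CATCTG, another E-box form, was searched on both strands (with CAGATG) and was in the promoters of 3 genes, Mxd4, Mycn and Mxi1 (27.3% of the 11), against 17.2% of all promoters. No match overlapped another. The windows of 30 bases around CACGTG are shown for the 4 members and for a promoter of Mlxipl, the liver partner of MLX. They are on the strand of the gene, with the motif in capitals. The other Mlxipl promoter listed, at chr5:135106641-135106940, held neither motif. Neither did the promoters listed for the further network genes Mlxip, Mga, Bmyc, Mycbp and Zbtb17.
Mxd4 (chr5:34187912-34187941, minus strand, motif 219 bases before the start): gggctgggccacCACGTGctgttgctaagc
Mnt (chr11:74830789-74830818, plus strand, 123 bases before): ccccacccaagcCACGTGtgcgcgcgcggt
Mlx (chr11:101087238-101087267, plus strand, 40 bases before): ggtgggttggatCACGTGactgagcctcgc
Max (chr12:76962234-76962263, minus strand, 3 bases before): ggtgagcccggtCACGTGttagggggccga
Mlxipl (chr5:135089780-135089809, plus strand, 98 bases before): gcggctgccatcCACGTGctaaggagagaa
The promoter of Mycl, the member whose transcript rose, held neither motif in this window and is shown whole, from chr4:122995681-122995980 on the plus strand.
Mycl: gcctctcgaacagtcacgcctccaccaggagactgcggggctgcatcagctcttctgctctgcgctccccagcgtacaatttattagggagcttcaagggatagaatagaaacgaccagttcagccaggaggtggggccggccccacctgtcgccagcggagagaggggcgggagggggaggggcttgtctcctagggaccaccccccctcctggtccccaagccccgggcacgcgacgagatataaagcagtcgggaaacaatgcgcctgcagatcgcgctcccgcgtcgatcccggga
A match is a description of the letters and not a bound site, and the absence of one says only that these letters were not in the window.

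In all, 25145 probe sets passed a filter on mean signal, and 18 of the 24 network probe sets were among them, at least 1 for each gene. Array medians lay between 4.95 and 4.99, and arrays correlated with each other at r = 0.972 to 0.994 over all probe sets. Deviations from the median of each probe set over all 6 arrays were widest in GHRH-KO 5 and control 2. Their interquartile ranges were 0.231 and 0.232, against 0.157 to 0.219 on the other arrays. GHRH-KO 5 gave the lowest or the highest of the 6 values in 9 of the 18 network probe sets (50%), and it did so in 50.2% of all tested probe sets. Control 3 also did so in 9 of the 18 (50%), against 24.2% of all tested probe sets. The Ghrh probe set was at 4.40, 4.55 and 4.57 in GHRH-KO livers, against 4.48, 4.41 and 4.75 in controls. This gene is not a liver transcript, so it does not check the genotypes, and its highest value of 4.75 was used as the level of background.

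By gene value, 1 of the 10 network genes was called higher in GHRH-KO livers (Mycl) and 0 lower, with a call set at an adjusted p under 0.05 from limma over all 25145 probe sets and a fold change above 1.5 or below 0.67. Among all 12469 genes tested, 1.76% were called, 0.786% higher and 0.97% lower. With p under 0.05 before adjustment stood 2 of the 10 genes, Mycl with a positive and Mxd4 with a negative difference, against 19.3% of all genes (9.15% higher and 10.1% lower). The median log2 difference was 0.01 for the 10 genes, against 0.0033 for all genes tested. The values of the 3 GHRH-KO livers lay wholly above those of the controls for 1 gene (Mycl) and wholly below them for 3 (Mxd3, Mxd4 and Mlx), and the groups overlapped for the other 6. Of all genes, 28.4% had groups that did not overlap, 12.7% higher and 15.7% lower. Counted over probe sets, 1 of the 18 tested was called higher and 0 lower, against 1.48% of all tested probe sets (0.628% higher and 0.851% lower). Groups did not overlap for 1 higher and 6 lower network probe sets, against 26.1% of all tested probe sets (11.4% higher and 14.7% lower). The 17 tested probe sets that were not called had log2 differences from -0.76 to 0.18 and limma adjusted p from 0.155 to 0.999, and for 14 of them the 95% confidence interval of the difference included 0. A p that misses the threshold does not show that the genotypes were alike, and the intervals are therefore given gene by gene.

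**Figure D1:**
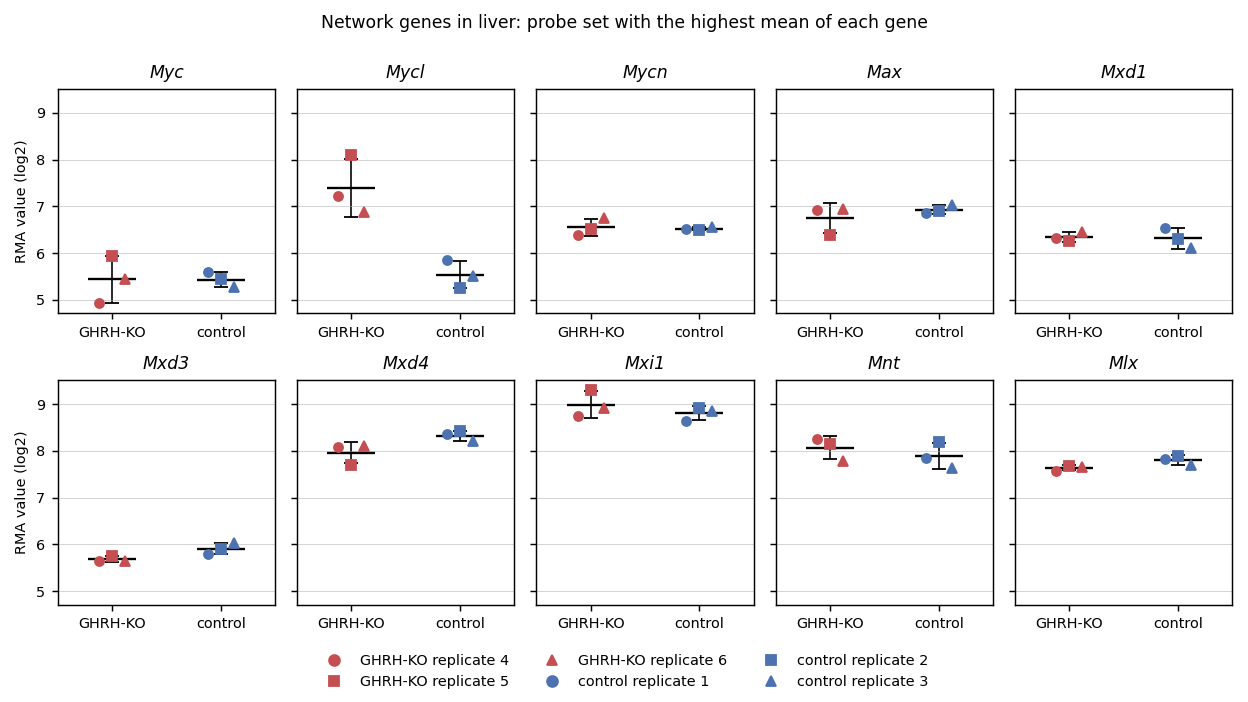
RMA value (log2) of each of the 10 network genes by its probe set with the highest mean, for 3 GHRH-KO livers (left, red) and 3 control livers (right, blue); points are arrays, long bars group means and short bars 1 SD. Mycl is the panel where the GHRH-KO points, 6.88 to 8.09, stand clear of the controls, 5.26 to 5.85.

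Among the MYC activators, Mycl transcript rose in GHRH-KO livers, while Myc and Mycn were at levels whose groups overlapped. Mycl encodes L-MYC, the family member first found in small cell lung cancer, and lies at chr4:122995588-123002490. Its probe set 1434777_at gave 7.22, 8.09 and 6.88 in GHRH-KO livers 4, 5 and 6, against 5.85, 5.26 and 5.52 in controls 1, 2 and 3. Every GHRH-KO value was above every control value, and GHRH-KO 5 was the highest array. The means were 7.40 ± 0.63 in GHRH-KO livers and 5.54 ± 0.29 in controls (SD, n = 3 each), a log2 difference of 1.85 (SE 0.31, 95% confidence interval 1.11 to 2.59) or 3.61-fold, with a limma adjusted p of 0.0430. Mycl is among the genes that the study listed from these same arrays, so the call is not independent evidence.

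The call on Mycl stood near its threshold. Leaving out 1 array at a time kept the difference between 1.51 and 2.11, and the call held only without GHRH-KO 5 (limma adjusted p = 0.030). It was lost without GHRH-KO 4 (0.084), GHRH-KO 6 (0.054), control 1 (0.076), control 2 (0.153) or control 3 (0.123), each of which leaves 5 arrays. With arrays weighted by their spread the difference was 1.46 and the limma adjusted p 0.023. The other probe sets of Mycl, 1422088_at and 1422087_at, lay between 3.66 and 3.90 in GHRH-KO livers and between 3.75 and 4.10 in controls. Both are under the background level on every array, so neither measures the change a second time, and where on the transcript each probe set lies is not given in the sources used here.

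The RNA came from whole liver, where fewer cells of a type and less RNA per cell cannot be told apart, and the marker genes of liver cell types are therefore given beside Mycl. None of the 7 hepatocyte markers tested was called, and their mean signal was 13.6 to 13.7 on all 6 arrays. None of the 10 Kupffer cell or macrophage markers was called. Their mean was 8.72, 7.50 and 8.03 in GHRH-KO livers 4, 5 and 6, against 8.71, 7.47 and 7.38 in controls, and these means overlapped. Of the 10, 8 had a positive difference, and the median was 0.32, from -0.02 to 0.83 as each array was left out. Cd68, a lysosomal protein of macrophages, gave 6.99 to 7.08 in GHRH-KO livers, against 5.38 to 6.74 in controls. Its groups did not overlap, and the log2 difference was 1.19 (limma adjusted p = 0.155). Marco and Timd4, the macrophage markers with a negative difference, differed by -1.26 and -0.17 with overlapping groups (limma adjusted p = 0.381 and 0.880). None of the 8 stellate cell markers was called either, with means of 8.46, 8.58 and 8.80 in GHRH-KO livers and 8.51, 7.92 and 8.02 in controls. All 8 had a positive difference, with a median of 0.32, and Pdgfrb, a receptor of stellate cells, differed by 0.90 with groups apart (limma adjusted p = 0.088). None of the 7 endothelial (median 0.19), 3 cholangiocyte (-0.54), 3 lymphocyte (0.09) or 2 neutrophil markers (0.78) tested was called. The cholangiocyte median ran from -0.60 to 0.19 as each array was left out. For both neutrophil markers tested, the control mean was at background. Cd3g, Cd8a, Cd79a, Cd79b, Ms4a1 and Nkg7 of lymphocytes and Mpo, Elane, Camp and Ngp of neutrophils lay below the intensity filter. The only erythroid marker tested, Alas2, was called lower, at -1.36. Cd68, Marco, Timd4 and Pdgfrb were named after their values were seen. The part of these cell types in the Mycl result was not tested.

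Myc, the founding member of the family and an early gene of liver regeneration, was represented by 1 probe set, 1424942_a_at. It gave 4.93, 5.93 and 5.45 in GHRH-KO livers and 5.60, 5.44 and 5.27 in controls. The GHRH-KO group held both the lowest and the highest array. Its SD was 0.50 in GHRH-KO livers and 0.17 in controls, and the log2 difference was 0.0007 (SE 0.25, 95% confidence interval -0.59 to 0.59, limma adjusted p = 0.999). With 3 arrays per genotype, changes of Myc up to the ends of that interval, in either direction, are not excluded. Without GHRH-KO 4 the difference was 0.25, and without GHRH-KO 5 it was -0.25.

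Mycn, best known from the developing nervous system and neuroblastoma, gave 6.39, 6.52 and 6.76 in GHRH-KO livers at 1425923_at, against 6.51, 6.50 and 6.56 in controls. The GHRH-KO group again held the lowest and the highest array. For Mycn the log2 difference was 0.03 (SE 0.13, 95% confidence interval -0.27 to 0.34, limma adjusted p = 0.910). Its other probe sets, 1425922_a_at and 1417155_at, were at background in both genotypes, with differences of -0.03 and 0.01.

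Max, the partner that every MYC and MXD protein needs to bind DNA, gave 6.93, 6.39 and 6.95 in GHRH-KO livers and 6.86, 6.90 and 7.04 in controls at its single probe set, 1423501_at. GHRH-KO 5 was the lowest array, and the other 2 GHRH-KO livers lay within the range of the controls. The log2 difference was -0.18 (SE 0.17, 95% confidence interval -0.59 to 0.23, limma adjusted p = 0.618). Without GHRH-KO 5 it was 0.0066.

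**Figure D2:**
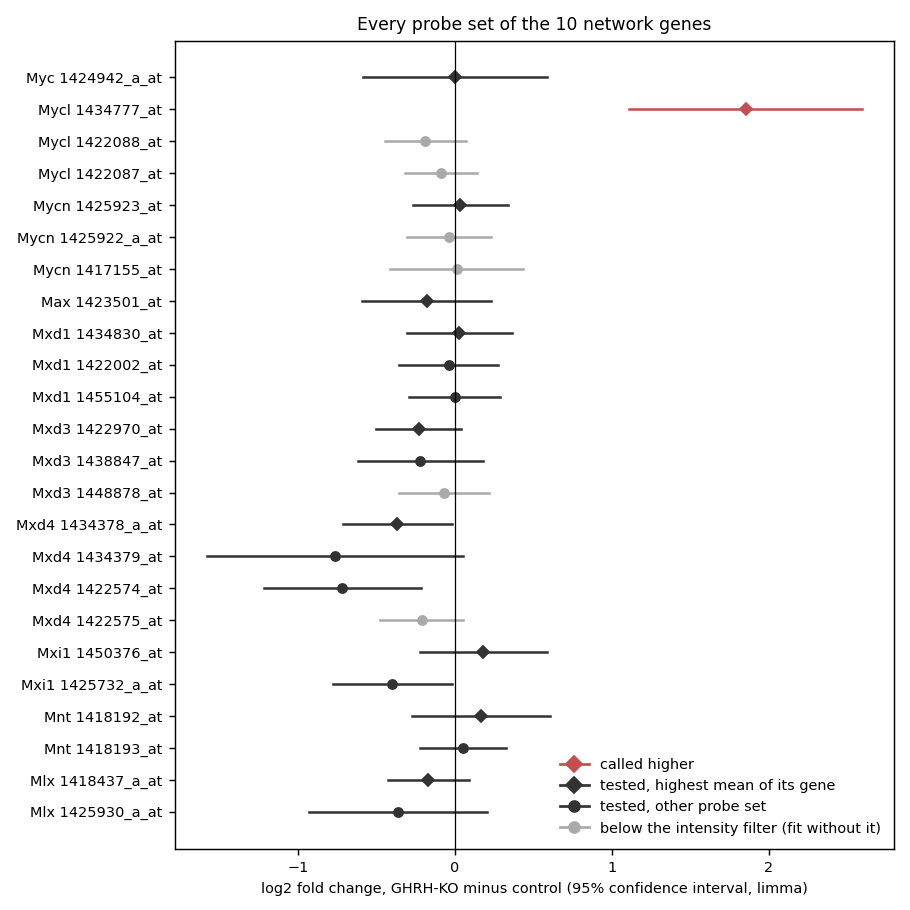
Log2 fold change, GHRH-KO minus control, of all 24 probe sets of the 10 network genes; diamonds mark the probe set with the highest mean of each gene, grey the 6 probe sets below the intensity filter, and lines the 95% confidence interval from limma. The interval of Mycl 1434777_at (1.11 to 2.59) stands far to the right, and the 3 tested Mxd4 probe sets lie left of 0, at -0.37, -0.76 and -0.72.

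Among the repressors of the MXD group, no gene was called. All tested probe sets of Mxd4 (3) and Mxd3 (2) had lower means in GHRH-KO livers, and those of Mxd4 had groups that did not overlap. MXD4 pairs with MAX, and its gene is typically expressed in differentiated cells. At 1434378_a_at, which stood for the gene, Mxd4 gave 8.08, 7.70 and 8.10 in GHRH-KO livers, against 8.36, 8.42 and 8.21 in controls. At 1434379_at it gave 7.56, 6.17 and 7.40 in GHRH-KO livers, against 7.94, 7.74 and 7.76 in controls. At 1422574_at it gave 6.84, 6.25 and 6.72 in GHRH-KO livers, against 7.46, 6.97 and 7.53 in controls. The groups did not overlap at any of the 3, and GHRH-KO 5 was the lowest array at each.

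The log2 difference of Mxd4 at the first was -0.37 (SE 0.15, 95% confidence interval -0.71 to -0.02, limma adjusted p = 0.256). At the second it was -0.76 (SE 0.35, interval -1.58 to 0.05, limma adjusted p = 0.299), and at the third -0.72 (SE 0.21, interval -1.22 to -0.22, limma adjusted p = 0.155). The intervals, which carry no adjustment for the number of probe sets, excluded 0 at the first and the third. No probe set of Mxd4 passed the test over all probe sets. Without GHRH-KO 5 the differences were -0.23, -0.33 and -0.54, smaller by over 1.5 times at the first and the second. The probe sets read the same RNA from the same mice and are not replicates of each other. The fourth, 1422575_at, was at background in both genotypes, with a difference of -0.21.

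**Figure D3:**
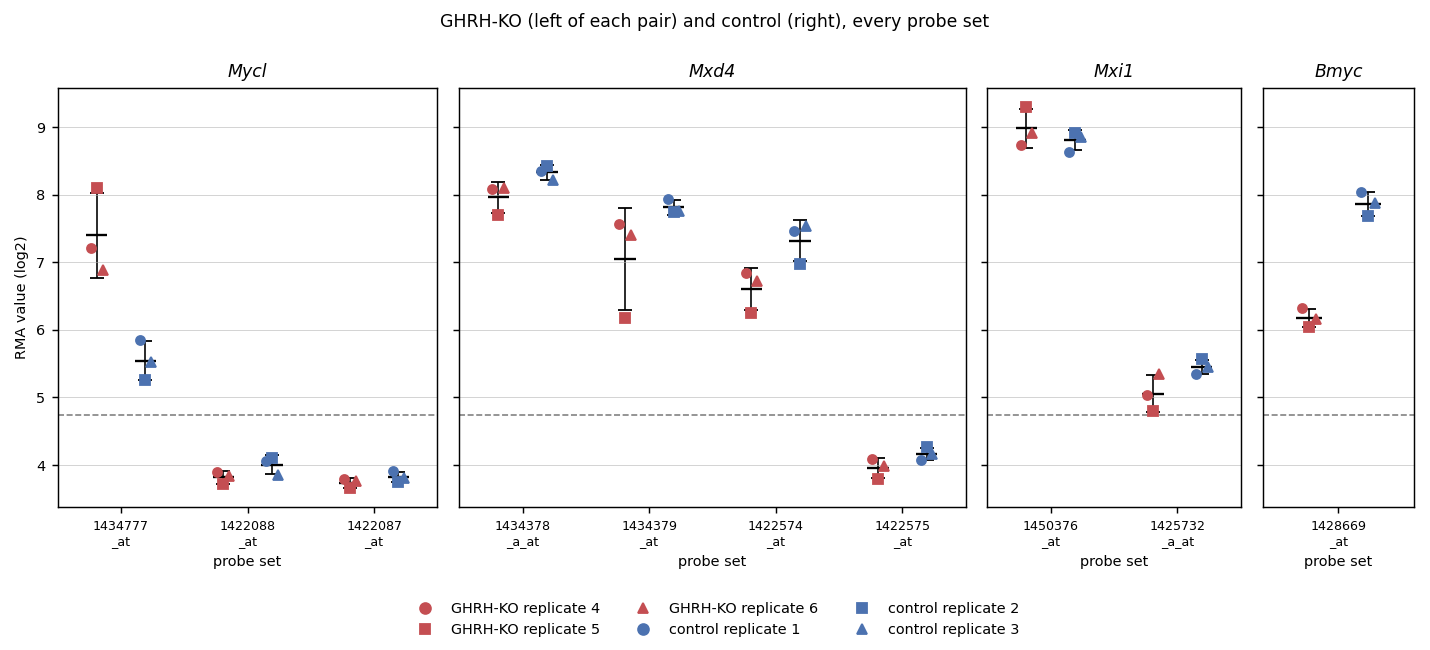
RMA value (log2) on each array for every probe set of Mycl, Mxd4, Mxi1 and of Bmyc, a MYC relative outside the 10 genes, with GHRH-KO left of control in each pair, means as long bars and 1 SD as short bars; the dashed line is the background level of 4.75. The arrays of Bmyc fall into 2 clusters by genotype, at 6.04 to 6.32 in GHRH-KO livers and 7.68 to 8.04 in controls, and only 1 of the 3 Mycl probe sets lies above the dashed line.

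Mxi1, the repressor also named MXD2, had probe sets that differed in direction. The one with the highest mean, 1450376_at, gave 8.74, 9.30 and 8.92 in GHRH-KO livers, against 8.64, 8.92 and 8.86 in controls. The groups overlapped, with GHRH-KO 5 the highest array, and the log2 difference was 0.18 (SE 0.17, 95% confidence interval -0.22 to 0.59, limma adjusted p = 0.600). The other, 1425732_a_at, gave 5.03, 4.79 and 5.34 in GHRH-KO livers, against 5.34, 5.56 and 5.45 in controls. Here the GHRH-KO arrays lay at or below the lowest control to the second decimal, and GHRH-KO 5 was the lowest. The log2 difference was -0.40 (SE 0.16, interval -0.78 to -0.02, limma adjusted p = 0.261). Mxi1 has 3 promoters in the RefSeq table, but which transcript each probe set reads is not given in the sources used here, and neither probe set passed the test.

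Mxd3, the family member that is expressed in dividing progenitor cells, gave 5.65, 5.75 and 5.64 in GHRH-KO livers at 1422970_at, against 5.80, 5.90 and 6.04 in controls. The highest GHRH-KO array was below the lowest control. Mxd3 differed by -0.23 on the log2 scale (SE 0.11, 95% confidence interval -0.50 to 0.04, limma adjusted p = 0.341). At 1438847_at, where the groups overlapped, the difference was -0.22 (interval -0.62 to 0.18, limma adjusted p = 0.520), and 1448878_at was at background in both genotypes.

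Mxd1, which takes over MAX as cells leave the cycle and differentiate, gave 6.32, 6.26 and 6.45 in GHRH-KO livers and 6.54, 6.30 and 6.11 in controls at 1434830_at. The GHRH-KO values all lay inside the range of the controls. Mxd1 differed by 0.03 on the log2 scale (SE 0.14, 95% confidence interval -0.31 to 0.36, limma adjusted p = 0.937), and 1422002_at and 1455104_at gave -0.04 and -0.001.

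Mnt, the most widely expressed of the MAX-binding repressors, gave 8.25, 8.15 and 7.78 in GHRH-KO livers and 7.86, 8.18 and 7.64 in controls at 1418192_at. The groups overlapped, with a control at the bottom and a GHRH-KO liver at the top. Its log2 difference was 0.17 (SE 0.19, 95% confidence interval -0.27 to 0.61, limma adjusted p = 0.661), and 1418193_at gave 0.05 (interval -0.22 to 0.32).

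Mlx, the hub of the glucose-responsive branch, gave 7.58, 7.67 and 7.66 in GHRH-KO livers at 1418437_a_at, against 7.83, 7.89 and 7.69 in controls. The groups did not overlap, though the highest GHRH-KO array lay close under the lowest control. The log2 difference was -0.17 (SE 0.11, 95% confidence interval -0.43 to 0.09, limma adjusted p = 0.453). At 1425930_a_at Mlx gave 7.86, 7.03 and 7.65 in GHRH-KO livers, against 8.00, 7.57 and 8.06 in controls. The groups overlapped there, with GHRH-KO 5 the lowest, and the log2 difference was -0.36 (SE 0.24, interval -0.93 to 0.20, limma adjusted p = 0.458).

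Around the 10 genes, 7 further network genes were tested: Mlxip, Mlxipl, Mga, Bmyc, Mycbp, Mycbp2 and Zbtb17. Of these, 0 were called higher and 1 lower, Bmyc, which is 14.3% of the list, against 1.76% of all genes (0.97% lower). The median log2 difference was -0.15, against 0.0033 for all genes. Groups did not overlap for 1 higher and 3 lower genes, 57.1% of the list, against 28.4% of all genes (12.7% higher and 15.7% lower). Bmyc is a rodent relative of Myc whose protein resembles the N-terminal part of MYC and has no DNA-binding domain. It gave 6.32, 6.04 and 6.16 in GHRH-KO livers, against 8.04, 7.68 and 7.88 in controls. The genotypes were far apart on all arrays. The log2 difference was -1.69 (SE 0.14, 95% confidence interval -2.02 to -1.36), or 0.31-fold, with a limma adjusted p of 0.0027, and the call held without each array in turn (-1.78 to -1.60, limma adjusted p from 0.00744 to 0.0246). Bmyc too is on the study's own list from these arrays.

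Of the partners of MLX, Mlxipl, the ChREBP gene, gave 11.25, 10.59 and 11.02 in GHRH-KO livers, against 11.43, 11.68 and 11.28 in controls. The groups did not overlap, and the log2 difference of Mlxipl was -0.51 (SE 0.20, 95% confidence interval -0.97 to -0.05, limma adjusted p = 0.238). Mlxip, the MondoA gene, differed by -0.15 (interval -0.60 to 0.31), with overlapping groups. Zbtb17, the MIZ1 gene, whose protein MYC joins when it represses genes, differed by -0.24 (limma adjusted p = 0.332) with groups apart. Mga, which pairs with MAX, differed by 0.08, Mycbp, whose protein binds MYC, by -0.08, and Mycbp2, a ubiquitin ligase gene, by 0.24, the last with all GHRH-KO arrays above all controls. None was called, and Mlxip, Mga, Mycbp and Mycbp2 were named to complete the list, after their values were seen. Other probe sets of these genes differed from the values above. Mycbp2 gave -0.04 at 1454900_s_at, -0.08 at 1434274_at and -0.16 at 1447150_at, with overlapping groups. At 1458870_x_at, where the control mean was at background, it gave 0.14. Mga gave -0.24 at 1422646_at and -0.43 at 1431232_a_at, with overlapping groups. Mycbp gave -0.38 at 1427939_s_at with groups apart.

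**Figure D4:**
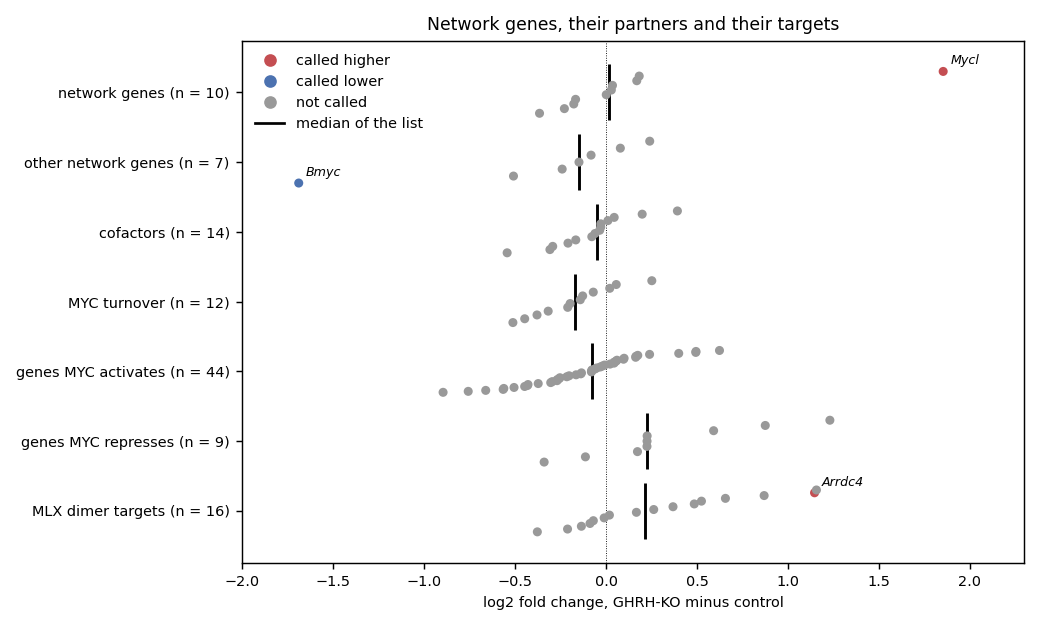
Log2 fold change, GHRH-KO minus control, of each gene by its probe set with the highest mean in the 10 network genes and 6 lists around them, with the median of each list as a black bar and called genes coloured and named. Besides Mycl, only Bmyc and Arrdc4 are coloured, and the medians run from -0.17 to 0.22.

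The known target genes of these factors were read from lists of textbook targets. Of 44 genes that MYC activates, among them genes of the nucleolus, translation and the cell cycle, 0 were called in either direction, and the median log2 difference was -0.08. Before adjustment, 3 were higher and 11 lower with p under 0.05, where all genes had 9.15% higher and 10.1% lower. The groups did not overlap for 1 higher and 14 lower genes, 34.1% of the list, against 28.4% of all genes (12.7% higher and 15.7% lower). Nolc1, a nucleolar phosphoprotein, gave 7.31, 6.87 and 7.27 in GHRH-KO livers, against 8.21, 8.08 and 7.86 in controls. Its groups lay well apart, and the log2 difference was -0.90 (SE 0.16, limma adjusted p = 0.054), just outside the threshold. Nop58 and Nop56, core proteins of the particles that guide ribosomal RNA methylation, differed by -0.76 (SE 0.31, limma adjusted p = 0.264) and -0.66 (SE 0.19, limma adjusted p = 0.151).

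Ncl, the nucleolin gene of the same list, had a called probe set in the other direction. By the probe set that stood for the gene, Ncl differed by -0.27 with overlapping groups, but 1415772_at gave 6.58, 6.71 and 6.80 in GHRH-KO livers, against 6.08, 5.99 and 5.99 in controls. That probe set rose by 0.67 on the log2 scale (SE 0.11, limma adjusted p = 0.0404). Ncl was named after its values were seen, and its probe sets do not give a single direction for the gene.

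Of 9 genes that MYC represses, 0 were called, 7 had a positive difference, and the median was 0.22. Before adjustment, 3 of the 9 were higher and 0 lower with p under 0.05, where all genes had 9.15% higher and 10.1% lower. Gas1, a membrane protein of growth-arrested cells, gave 10.37, 10.21 and 10.04 in GHRH-KO livers and 9.52, 9.56 and 9.76 in controls, a log2 difference of 0.59 (SE 0.13, limma adjusted p = 0.088). Gadd45a, a stress gene of growth arrest, gave 8.58, 6.92 and 7.58 in GHRH-KO livers and 6.63, 6.05 and 6.70 in controls, a difference of 1.23 (SE 0.41, limma adjusted p = 0.184). These were the 2 genes of the list whose groups did not overlap (22.2%, against 28.4% of all genes), and the list's median ran from 0.11 to 0.35 as each array was left out.

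Of 16 genes that MLX dimers activate under glucose, 1 was called higher, Arrdc4, 0 lower, and the median was 0.21. The called share was 6.25%, against 1.76% of all genes (0.786% higher and 0.97% lower). Before adjustment, 5 of the 16 were higher and 0 lower with p under 0.05, where all genes had 9.15% higher and 10.1% lower. Arrdc4, an arrestin-domain protein of glucose uptake, gave 7.32, 7.71 and 7.26 in GHRH-KO livers, against 6.32, 6.11 and 6.42 in controls. All GHRH-KO arrays were above all controls, and the log2 difference was 1.15 (SE 0.16) or 2.21-fold, with a limma adjusted p of 0.0228. Of the 2 probe sets of Arrdc4, only this 1 was called. The Arrdc4 call held only without GHRH-KO 5 among the 6 fits that leave out 1 array, in which the difference ran from 1.01 to 1.23 and the limma adjusted p from 0.033 to 0.090. Txnip, the paralogue of Arrdc4 that binds thioredoxin, gave 9.01, 9.48 and 9.49 in GHRH-KO livers and 8.76, 8.10 and 8.52 in controls, a difference of 0.87 (SE 0.21, limma adjusted p = 0.106). G6pc, the catalytic subunit of glucose-6-phosphatase, differed by 0.52 (SE 0.18, limma adjusted p = 0.203). The groups did not overlap for these 3 genes of the list (18.8%, against 28.4% of all genes) and for no other. Klf10, a zinc finger factor, had the largest difference of the list, 1.16 (SE 0.42, limma adjusted p = 0.219), but its groups overlapped. The glycolytic and lipogenic genes Pklr, Acly, Fasn, Acaca, Scd1 and Elovl6 were not called, with log2 differences from -0.38 to 0.66. Klf10 and these 6 were named after their values were seen.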

How the data were processed

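Liver RNA of 3 GHRH-KO and 3 control mice was measured. The authors deposited RMA values on the log2 scale (background correction, quantile normalization and summary of the probes of each probe set). The RMA version is not given in the sources used here. Their MAS 5.0 detection filter cannot be repeated from these values, so the 25145 probe sets with the highest mean, the number their methods kept, were tested (lowest mean 4.64), and 64 control probe sets were left out.

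The probe annotation gave 1 gene for 34958 probe sets, several for 932 and none for 9211, and 34754 of the first matched the gene table of GRCm38.p6 by Entrez ID. The difference between genotypes (GHRH-KO minus control) came from limma 3.58.1 under R 4.3.3, with lmFit, eBayes and p adjusted by Benjamini-Hochberg over all probe sets tested. Genes were called at an adjusted p under 0.05 and a fold change above 1.5 or below 0.67. The script was checked on simulated data. It called 62% and 60% of simulated log2 differences of 1 and -1, and 90% and 92% of those of 2 and -2. Depth has no meaning for arrays, and their number limits the precision.

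The 10 members and all lists were chosen with earlier results of these data known. Named genes are all members and, of the other lists, called genes. A list with fewer than 3 called genes was filled up to 3 in all. The genes added had the largest differences among those whose groups did not overlap. Alternatives left out 1 array (6 fits) or changed 1 other choice (9 fits). Tables and figures were made with pandas 2.3.3 and matplotlib 3.10.9 in Python 3.11.15.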

Additional observations from a re-analysis of the deposited data

How the results depend on the processing

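Over 15 alternatives, 144 values of the network genes were obtained, a filter that kept only the brighter of the tested probe sets giving none for some genes. Of these, 126 kept their direction and their side of the threshold, 6 kept the direction but lost the call, all of Mycl, and 12 changed sign. Network genes called higher numbered 0 under this stricter filter, which does not hold Mycl, 0 without control 2 and GHRH-KO 5 together (Mycl 1.37, limma adjusted p = 0.069), and 0 to 1 as each array was left out. Those called lower numbered 0 throughout.

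Sign changes were confined to Myc, Mycn, Max, Mxd1 and Mxi1, and none of these values was called. Myc differed by -0.0077 with arrays centred on their medians, -0.037 with array weights and -0.25 without control 2 and GHRH-KO 5 together. By the probe set with the lowest p, Mxd1 differed by -0.039 and Mxi1 by -0.40. Leaving out 1 array gave -0.25 to 0.25 for Myc, -0.065 to 0.12 for Mycn, -0.28 to 0.0066 for Max and -0.074 to 0.14 for Mxd1. The cause was not tested.

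Over all genes, 98 were called higher and 121 lower. Array weights gave 248 higher and 288 lower, and leaving out control 2 and GHRH-KO 5 together gave 42 and 64. As each array was left out, 36 to 93 were called higher and 46 to 95 lower, from 5 arrays in place of 6. Nolc1 passed the threshold with another quantile normalization (limma adjusted p = 0.048), under the stricter filter (0.0496) and with array weights (0.024), and Txnip with array weights (0.042). No paired analysis was possible because the replicate numbers of the genotypes are not shared.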

Other observations

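The cofactors that network proteins bring to DNA were not called in either direction. Of 14 tested, p before adjustment was under 0.05 for 1 with a negative and 0 with a positive difference, against 19.3% of all genes in either direction. The median log2 difference was -0.05, 1 had groups wholly higher in GHRH-KO livers and 2 wholly lower, which is 21.4% of the list, below the 28.4% of all genes. Trrap, the scaffold of histone acetyltransferase complexes that MYC recruits, gave 7.63, 7.35 and 7.76 in GHRH-KO livers and 8.33, 8.21 and 7.84 in controls, a difference of -0.54 (SE 0.17, limma adjusted p = 0.178). Ep300, an acetyltransferase, gave 8.93, 9.39 and 8.84 in GHRH-KO livers and 8.79, 8.52 and 8.66 in controls, a difference of 0.39 (SE 0.17, limma adjusted p = 0.288). Ruvbl1, an ATPase of chromatin remodelling complexes, differed by -0.17 (limma adjusted p = 0.445). Sin3a and Sin3b, the corepressors that MXD proteins bind, both differed by -0.03 with overlapping groups.

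The genes of MYC protein turnover were not called either. Of 12 tested, p before adjustment was under 0.05 for 3 with a negative and 0 with a positive difference, against 10.1% of all genes lower and 9.15% higher. In all, 9 had a negative difference, the median was -0.17, and the groups lay wholly lower in GHRH-KO livers for 3 and wholly higher for 0, which is 25% of the list, near the 28.4% of all genes. Fbxw7, the F-box protein that marks phosphorylated MYC for the proteasome, gave 7.27, 6.70 and 7.21 in GHRH-KO livers and 7.60, 7.64 and 7.28 in controls, a difference of -0.45 (SE 0.19, limma adjusted p = 0.273). Usp36, a nucleolar deubiquitinase that removes such marks, gave 6.96, 7.65 and 7.56 in GHRH-KO livers and 7.83, 7.94 and 7.94 in controls, a difference of -0.51 (SE 0.19, limma adjusted p = 0.230). Stub1, a ubiquitin ligase of chaperone clients, gave 10.02, 9.79 and 9.99 in GHRH-KO livers and 10.21, 10.50 and 10.23 in controls, a difference of -0.38 (SE 0.13, limma adjusted p = 0.203). Sin3a and Sin3b were named after their values were seen.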
